A study of Homo sapiens with 6 samples.

Results

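Transcripts of 9 transcription factors that act in neural stem and progenitor cells were followed in U251, an established human glioblastoma cell line. They were chosen by name, with earlier results of these data known, as 6 members of the SOX family (SOX2, SOX4, SOX5, SOX9, SOX11 and SOX12) with POU3F2, SALL2 and OLIG2. All 9 of these among the 57773 genes of the count table had an identifier, and all 9 were among the 15818 genes that passed the low-count filter. Cells were either a stable U251 line carrying PD-L1 on a lentivirus or, as its control, a U251 line carrying the lentiviral vector alone. PD-L1 is the product of CD274 and, on binding PD-1, restrains T cells. Each line gave 3 dishes at passages 5 to 10, grown in DMEM with 10% fetal bovine serum and taken 12 h after they were passaged. Both lines went through lentiviral infection, and the dishes of a group come from 1 stable line each. The p-values therefore rest on how dishes of 1 line vary, and independent transductions were not compared.

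SOX proteins bind DNA through an HMG box, a domain related to that of the sex-determining factor SRY, and are sorted into groups by its sequence. SOX2, of group B1, maintains neural stem cells. SOX4, SOX11 and SOX12 form group C, which is active in progenitors that are beginning to differentiate. SOX9, of group E, supports the gliogenic switch and astrocyte development and directs cartilage formation. SOX5, of group D, lacks a transactivation domain and acts beside other SOX factors. POU3F2 (BRN2) is a POU-domain factor of neural precursors, SALL2 is a zinc-finger factor, and OLIG2 is a basic helix-loop-helix factor of the oligodendrocyte lineage. SOX2, POU3F2, SALL2 and OLIG2 together are known from work on human glioblastoma as a set that can return differentiated tumour cells to a stem-like, tumour-propagating state.

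The stretches before the transcription starts that RefSeq gives are shown first, as background. Neither transcription itself nor which start the cells used was measured. RefSeq start regions were matched for 6 of the 9 genes (SOX2, SOX4, SOX5, SOX12, POU3F2 and SALL2), and the 250 bases before each start were searched on both strands. Shown are those of SOX2, the matched gene that fell in PD-L1 dishes, of POU3F2, whose fold change was the highest of the 9, and of SOX12, a gene with similar levels in both groups. Sequences are from GRCh38.p14 as RefSeq gives it, 5′ to 3′ on the strand of the gene, and capitals mark matches, on either strand, to the motifs listed after them.
SOX2 (chr3:181711675-181711924, plus strand): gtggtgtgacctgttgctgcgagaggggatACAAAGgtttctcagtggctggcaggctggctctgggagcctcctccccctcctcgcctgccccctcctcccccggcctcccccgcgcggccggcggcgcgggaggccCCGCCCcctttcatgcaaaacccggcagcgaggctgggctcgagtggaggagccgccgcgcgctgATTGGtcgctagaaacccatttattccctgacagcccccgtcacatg
POU3F2 (chr6:98834324-98834573, plus strand): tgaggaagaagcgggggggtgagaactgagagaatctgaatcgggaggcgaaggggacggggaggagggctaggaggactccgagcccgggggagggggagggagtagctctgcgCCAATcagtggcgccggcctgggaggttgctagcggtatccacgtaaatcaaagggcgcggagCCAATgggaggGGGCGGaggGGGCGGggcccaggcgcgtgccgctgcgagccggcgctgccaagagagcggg
SOX12 (chr20:325302-325551, plus strand): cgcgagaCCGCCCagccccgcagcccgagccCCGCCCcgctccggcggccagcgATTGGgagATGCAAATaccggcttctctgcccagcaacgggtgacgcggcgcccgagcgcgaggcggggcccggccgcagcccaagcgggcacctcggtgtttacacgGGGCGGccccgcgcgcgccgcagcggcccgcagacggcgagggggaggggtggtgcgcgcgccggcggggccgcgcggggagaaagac

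The SOX core ACAAAG stood 220 bases before the SOX2 start and in none of the other 5 matched genes, while 13.7% of 35116 RefSeq start regions of that length held it. Its second form ACAATG was present in 2 of 6 genes (SOX5 and SALL2), against 9.29% of all regions. The octamer ATGCAAAT, the classical site of POU factors, stood 188 bases before the SOX12 start and in 1 of 6 genes, against 1.63% of all regions. A CCAAT box was present in 4 of 6 genes, against 32% of all, and a GC box GGGCGG in 4 of 6, against 42.6%. None of the 6 held TATAAA, which 10.7% of all regions held. In SOX12 the CCAAT box and the octamer do not overlap. In the stretch before the SOX2 start, GC content was 68.8%, in that of POU3F2 69.2% and in that of SOX12 79.2%. These matches describe letters in a window, and no binding was measured.

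Total counts ran from 15678989 to 19704409 in the PD-L1 dishes and from 18797948 to 22270509 in the Vector dishes. Levels are given as CPM, counts scaled to library size, after TMM scaling, which corrects for differences in library composition. CD274 had 26827, 22001 and 23046 counts in PD-L1 dishes 1 to 3, against 34, 71 and 41 in the Vector dishes, which fits the labels. PD-L1 dish 3 stood apart from its group: replicate pairs that include it had a chi-square per degree of freedom of 14.8 and 16.1, against 3.02 for PD-L1 dishes 1 and 2 and 5.25 to 10.1 between Vector dishes. The dishes also differed in how counts depended on GC content. The slope of log2 CPM per 10 points of GC was -0.10, -0.06 and 0.04 in PD-L1 dishes 1 to 3, against 0.10, -0.00343 and 0.02 in Vector dishes 1 to 3. Of the 15818 genes, 245 (1.55%) were higher and 1139 (7.2%) lower in PD-L1 dishes at a false discovery rate (FDR) under 0.05. Both directions together made up 8.75%, and 82.3% of the called genes were lower. Without PD-L1 dish 3 the counts were 1271 (7.81%) and 2241 (13.8%), and after an offset for GC content and length 788 (4.98%) and 1276 (8.07%), so that 63.8% and 61.8% of called genes were lower.

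Of the 9 genes, 3 (SOX11, SOX9 and SOX2) were lower in PD-L1 dishes, and 0 were higher in the edgeR quasi-likelihood test, in DESeq2 or in limma-voom. At an unadjusted p under 0.05, edgeR put 1 gene, POU3F2, higher. The 3 lower genes among 9 stand beside the 7.2% of all tested genes that were lower. The median log2 fold change of the 9 genes was -0.05, against 0.02 over all tested genes. The same 3 genes had PD-L1 dishes that all lay below all Vector dishes, as did 15.5% of all tested genes, and in the other 6 the groups overlapped. In RNA from whole dishes, fewer cells that express a gene and less RNA per cell cannot be told apart.

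**Figure D1:**
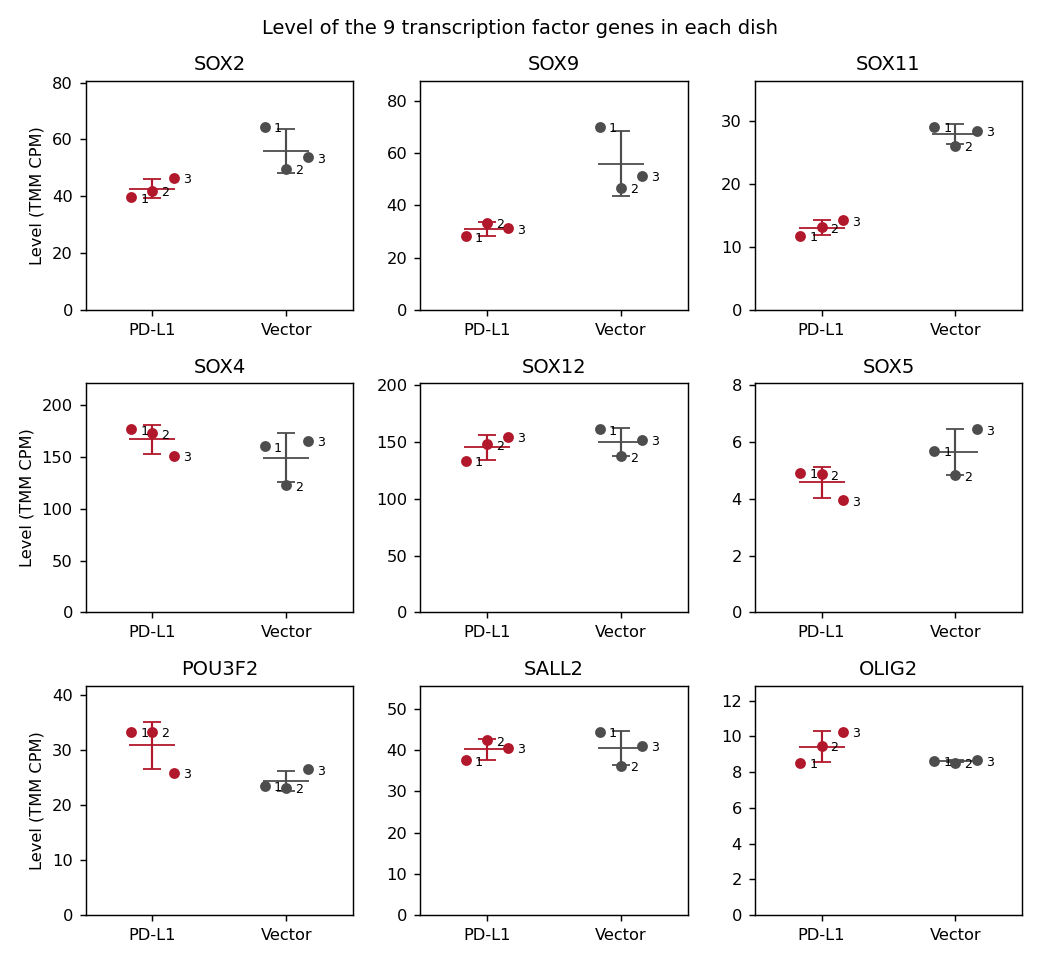
Level of each gene (TMM CPM, axes from 0) in the PD-L1 dishes (red, left) and the Vector dishes (grey, right), with the dish number beside each point and bars for mean ± SD of 3 dishes. For SOX2, SOX9 and SOX11 the groups are apart, and for the other 6 genes they overlap.

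SOX11 (ENSG00000176887, chromosome 2), a group C factor of immature neurons and progenitors, changed the most of the 9 genes. Its level was 11.8, 13.2 and 14.2 CPM in PD-L1 dishes 1 to 3, against 29.1, 26.1 and 28.5 CPM in Vector dishes 1 to 3. Every PD-L1 dish was far below every Vector dish, and the dishes within each group lay close together. The log2 fold change was -1.10 ± 0.10 (SE, n = 3 each; edgeR adjusted p = 4.47e-05). In an exact two-sided permutation test p was 0.1, and no smaller value is possible with 3 dishes a group. SOX11 was called in all 6 fits that left out 1 dish, with log2 fold changes of -1.17 to -1.02. A short noncoding gene that shares 74 exon bases with SOX11 on the same strand had 0 to 4 counts per dish. How reads in the shared bases were assigned is not known.

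SOX4 (ENSG00000124766, chromosome 6) and SOX12 (ENSG00000177732, chromosome 20), the other group C genes, did not pass the test. SOX4 had 177, 173 and 152 CPM in PD-L1 dishes, against 160.4, 123 and 166 CPM in Vector dishes, so that the groups overlapped. Its log2 fold change was 0.16 ± 0.11, with a 95% interval of -0.07 to 0.39 (adjusted p = 0.385, edgeR). SOX12 had 134, 148 and 155 CPM in PD-L1 dishes and 161, 137 and 152 CPM in Vector dishes. Its log2 fold change was -0.05 ± 0.08, with an interval of -0.22 to 0.13 (adjusted p = 0.786, edgeR), and it turned to 0.10 after the GC and length offset, again without passing.

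The change of SOX11 was also read within each dish, as the ratio of its counts to those of its relatives, which does not depend on library scaling. The log2 ratio of SOX11 to SOX12 was -3.50, -3.49 and -3.44 in PD-L1 dishes, against -2.47, -2.39 and -2.41 in Vector dishes. The groups were separated by 1.05, and the dishes of a group lay within an SD of 0.03 in PD-L1 and 0.04 in Vector dishes. These 2 genes differ in GC content (47.7% in SOX11 and 62.0% in SOX12). With the GC and length offset the difference, PD-L1 minus Vector, moved from -1.05 to -1.14. SOX11 to SOX4 gave -3.68 ± 0.25 in PD-L1 dishes and -2.41 ± 0.16 in Vector dishes (SD, n = 3 each). SOX12 to SOX4, the pair of uncalled genes, gave -0.20 ± 0.22 in PD-L1 and 0.01 ± 0.14 in Vector dishes, and there the groups overlapped (exact permutation p = 0.3, 0.3 adjusted over the 6 pairs compared). For the other 5 pairs the groups did not overlap. There the exact permutation p was 0.1, the smallest possible, or 0.12 after adjustment over the 6 pairs. Each of these 5 pairs holds SOX11, SOX9 or SOX2, whose own levels were apart between the groups. The share of other gene pairs without overlap was not computed.

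**Figure D2:**
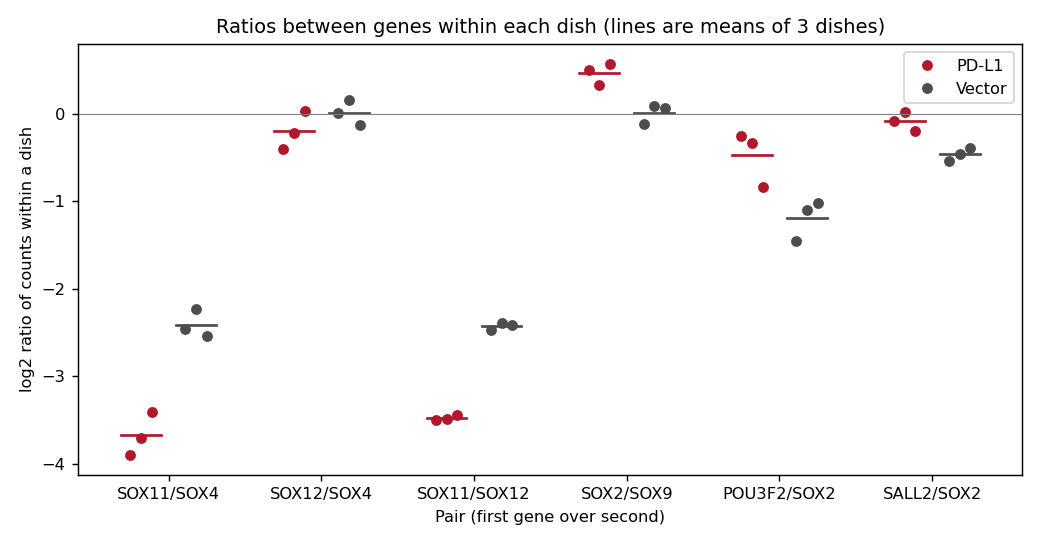
Log2 ratio of the counts of 2 genes within each dish for the 6 pairs compared, PD-L1 dishes (red) left of Vector dishes (grey), with lines for the mean of 3 dishes. SOX11 to SOX12 is near -3.48 in PD-L1 dishes and -2.43 in Vector dishes, while SOX12 to SOX4 overlaps.

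SOX9 (ENSG00000125398, chromosome 17), the glial and cartilage factor of group E, was 1.82-fold lower in PD-L1 dishes. It had 28.1, 33.4 and 31.2 CPM in PD-L1 dishes, against 70.0, 46.7 and 51.2 CPM in Vector dishes. All PD-L1 dishes lay below all Vector dishes, and Vector dish 1 was well above the other two. The log2 fold change was -0.86 ± 0.13 (adjusted p = 0.00146, edgeR). Without Vector dish 1 it was -0.67 and still passed. Without PD-L1 dish 3 the call ended at a log2 fold change of -0.87 ± 0.22 (adjusted p = 0.0595, edgeR), so the size held and the error grew. SOX9-AS1, on the opposite strand with no exon base shared, had 1 to 7 counts in any dish, too few to move these values.

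SOX2 (ENSG00000181449, chromosome 3), the stem cell factor of group B1, was 1.31-fold lower. Its level was 39.7, 42.0 and 46.5 CPM in PD-L1 dishes, against 64.4, 49.6 and 53.7 CPM in Vector dishes. The groups did not overlap, but PD-L1 dish 3 and Vector dish 2 lay close to each other. The log2 fold change was -0.39 ± 0.10 (adjusted p = 0.0304, edgeR). This call ended in 4 of 6 fits with 1 dish left out, with adjusted p of 0.133 and 0.0948 on leaving out PD-L1 dish 1 or 2, and of 0.181 and 0.0511 on leaving out Vector dish 1 or 3 (edgeR). The log2 fold change was between -0.47 and -0.28 in these 6 fits. SOX2 lies inside the locus of the noncoding RNA SOX2-OT on the same strand, with no exon base shared in GENCODE 29. SOX2-OT had 40, 28 and 60 counts in PD-L1 dishes and 50, 32 and 35 in Vector dishes, with a log2 fold change of 0.26 ± 0.26 (adjusted p = 0.582, edgeR).

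SOX2 and SOX9 were also set against each other. The log2 ratio of SOX2 to SOX9 counts within a dish was 0.50, 0.33 and 0.58 in PD-L1 dishes and -0.12, 0.09 and 0.07 in Vector dishes. Every PD-L1 dish had more SOX2 relative to SOX9 than any Vector dish, a difference of 0.45 (exact permutation p = 0.1, 0.12 adjusted over the 6 pairs).

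POU3F2 (ENSG00000184486, chromosome 6) was the gene with the highest fold change. It had 33.4, 33.3 and 25.9 CPM in PD-L1 dishes, against 23.5, 23.1 and 26.5 CPM in Vector dishes. PD-L1 dishes 1 and 2 were above all Vector dishes, whereas PD-L1 dish 3 lay among them. The log2 fold change was 0.34 ± 0.11 (adjusted p = 0.0708, edgeR), short of the threshold. Without PD-L1 dish 3 it was 0.45 ± 0.09 and passed (adjusted p = 9.35e-04, edgeR). It also passed with upper-quartile scaling (0.0458), without a low-count filter (0.0342) and after the GC and length offset (0.0225). It did not pass with DESeq2 (adjusted p = 0.0781) or limma-voom (0.0825). Nor did it pass on leaving out any other dish (highest adjusted p = 0.27, edgeR). Over all tested genes the higher share also rose, from 1.55% to 7.81% without PD-L1 dish 3 and to 4.98% after the offset. Set against SOX2 in the same dish, the log2 ratio of POU3F2 was -0.25, -0.33 and -0.84 in PD-L1 dishes and -1.45, -1.10 and -1.02 in Vector dishes. Thus the groups were apart in this ratio, although they overlapped in the level of POU3F2 itself. SOX2, the other gene of the ratio, was apart between the groups by itself.

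SALL2 (ENSG00000165821, chromosome 14) had 37.5, 42.5 and 40.6 CPM in PD-L1 dishes and 44.5, 36.2 and 41.0 CPM in Vector dishes. Its log2 fold change was -0.01 ± 0.09, with a 95% interval of -0.22 to 0.19 (adjusted p = 0.947, edgeR), and the sign turned with upper-quartile scaling (0.02) and the GC and length offset (0.06). The log2 ratio of SALL2 to SOX2 within the dish was -0.09 ± 0.11 in PD-L1 dishes and -0.46 ± 0.07 in Vector dishes (SD, n = 3 each). The groups did not overlap, and the difference of 0.37 is near the fall of SOX2 itself (log2 fold change -0.39, edgeR). An antisense gene shares 472 exon bases with SALL2 and had 0 counts in every dish. The libraries carry no strand information, so these counts do not show how reads in the shared bases were assigned. OLIG2 (ENSG00000205927, chromosome 21) had 8.53, 9.47 and 10.3 CPM in PD-L1 dishes and 8.64, 8.54 and 8.66 CPM in Vector dishes. PD-L1 dish 1 was level with the 3 Vector dishes and PD-L1 dishes 2 and 3 were above them. The log2 fold change was 0.13 ± 0.12 with an interval of -0.13 to 0.39 (adjusted p = 0.566, edgeR). SOX5 (ENSG00000134532, chromosome 12) was the lowest of the 9 genes, with 4.92, 4.86 and 3.96 CPM in PD-L1 dishes and 5.70, 4.83 and 6.45 CPM in Vector dishes. Its log2 fold change was -0.30 ± 0.16, with an interval of -0.65 to 0.05 (adjusted p = 0.282, edgeR). The counts behind SOX5 were 74 to 101 in PD-L1 and 99 to 124 in Vector dishes, which limits what a change of this size can show.

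**Figure D3:**
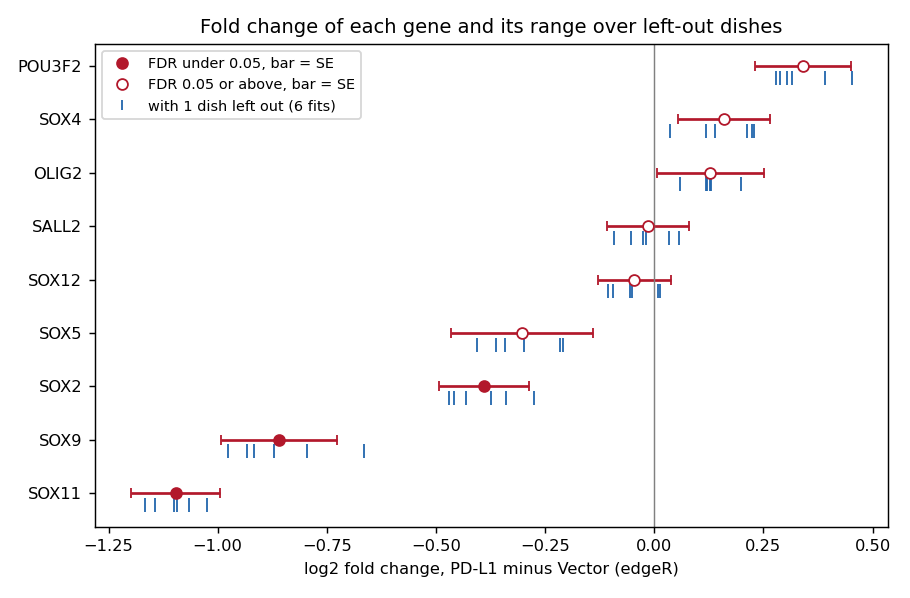
Log2 fold change of each gene, PD-L1 minus Vector, from the edgeR fit over all 6 dishes (circles with SE, filled where the FDR was under 0.05) and from 6 fits that each left out 1 dish (blue ticks). SOX11, SOX9, SOX2 and SOX5 stay below 0 in all 6 fits, and POU3F2, SOX4 and OLIG2 stay above 0. SOX12 and SALL2 fall on both sides.

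Between genes, levels were compared per kilobase of exon. SOX12 and SOX4 were the most abundant, at 31.4 ± 2.35 and 28.6 ± 2.33 CPM per kilobase in PD-L1 dishes (SD, n = 3), where their dishes overlapped. In Vector dishes the same genes were at 32.4 ± 2.60 and 25.6 ± 4.01, without overlap. SOX2 followed with 17.0 ± 1.37 in PD-L1 dishes and 22.3 ± 3.04 in Vector dishes, and there it overlapped with SOX4. SOX9 was at 7.85 ± 0.68 in PD-L1 dishes, overlapping with SALL2 at 7.47 ± 0.46. In Vector dishes SOX9 stood alone at 14.2 ± 3.14, above SALL2 at 7.54 ± 0.78. SOX11 ranked below OLIG2 in PD-L1 dishes and above it in Vector dishes. It had 1.35, 1.51 and 1.63 CPM per kilobase in PD-L1 dishes, against 3.34, 3.00 and 3.27 in Vector dishes, and OLIG2 had 2.81 ± 0.26 in PD-L1 and 2.57 ± 0.02 in Vector dishes. SOX5 was last in both groups, at 0.44 ± 0.05 in PD-L1 and 0.54 ± 0.08 in Vector dishes.

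**Figure D4:**
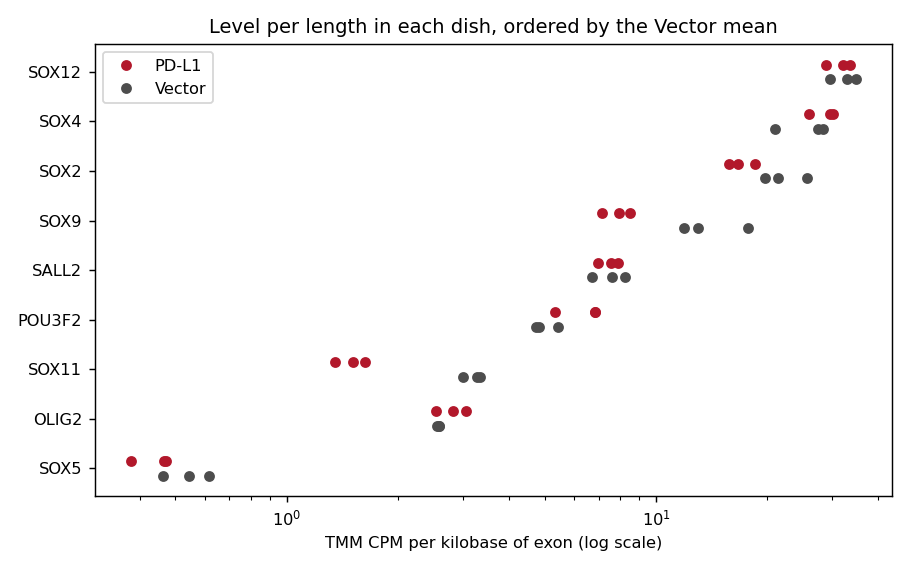
Level of each gene in TMM CPM per kilobase of exon (log axis) in the PD-L1 dishes (red, upper row) and Vector dishes (grey, lower row), in the order of the Vector mean. SOX12 and SOX4 are highest, SOX5 is lowest, and SOX11 lies above OLIG2 in Vector dishes only.

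Levels were also summed by SOX group. SOX4, SOX11 and SOX12 together were at 61.5 ± 1.41 CPM per kilobase in PD-L1 dishes and 61.2 ± 6.58 in Vector dishes, and the groups overlapped. SOX11 made up 2.44 ± 0.22% of that sum in PD-L1 dishes, against 5.25 ± 0.29% in Vector dishes. In group E, where SOX9 was the main gene, the sum of SOX8, SOX9 and SOX10 was 9.08 ± 0.68 CPM per kilobase in PD-L1 dishes and 15.2 ± 3.26 in Vector dishes, without overlap. SOX9 held 86.4 ± 2.11% of that sum in PD-L1 and 93.3 ± 0.81% in Vector dishes, and SOX8 held 12.9 ± 2.09% in PD-L1 and 5.91 ± 0.48% in Vector dishes. Group B1 summed to 17.4 ± 1.39 CPM per kilobase in PD-L1 dishes and 23.2 ± 3.22 in Vector dishes. Group D (SOX5, SOX6 and SOX13) summed to 4.16 ± 0.41 in PD-L1 and 5.19 ± 0.53 in Vector dishes, and group F (SOX7, SOX17 and SOX18) to 7.80 ± 2.19 in PD-L1 and 13.2 ± 3.94 in Vector dishes. The groups of dishes did not overlap in these 3 sums either, but in groups D and F they nearly touched. The highest PD-L1 and lowest Vector dish were at 4.51 and 4.58 in group D and at 10.31 and 10.34 in group F. No tested gene of group D or F was called in the fit over all dishes. Of all single genes tested, 15.5% had every PD-L1 dish below every Vector dish. In group B1, SOX2 held 97.7 ± 0.56% of the sum in PD-L1 and 96.2 ± 0.24% in Vector dishes. These sums were formed after the values of the single genes were known and are given as descriptions.

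Of 13 other SOX genes, 8 passed the low-count filter, with 1 lower and 0 higher (median log2 fold change -0.17). The shares over all tested genes were 7.2% lower and 1.55% higher. DESeq2 gave 2 lower and 0 higher, and at an unadjusted p under 0.05 edgeR gave 3 lower and 0 higher. After the GC and length offset 2 were lower and 1 was higher, beside 8.07% and 4.98% of all tested genes. With 1 dish left out 0 to 3 were lower. The lower gene was SOX3, the group B1 relative of SOX2, at 0.97, 0.61 and 0.96 CPM in PD-L1 dishes and 2.34, 1.66 and 1.72 CPM in Vector dishes. Its log2 fold change was -1.15 ± 0.28 (adjusted p = 0.0200, edgeR), and the call ended without PD-L1 dish 2 or Vector dish 1 (highest adjusted p = 0.123). SOX13, of group D, was at 25.3 ± 3.13 CPM in PD-L1 dishes, against 32.5 ± 3.52 CPM with Vector (adjusted p = 0.0577, edgeR), and SOX18, an endothelial factor of group F, at 13.2 ± 4.09 CPM in PD-L1 dishes and 23.4 ± 7.17 CPM in Vector dishes (adjusted p = 0.0886, edgeR). SOX13 was called lower with DESeq2 (adjusted p = 0.0476) and without PD-L1 dish 3 (0.00986) or Vector dish 2, and SOX18 after the GC and length offset (0.0229) and without Vector dish 2. SOX6, SOX7, SOX8, SOX15 and SOX21 had log2 fold changes of -0.21 to 0.38 and adjusted p of 0.231 or more. SOX8, the group E relative of SOX9, was called higher after the GC and length offset (log2 fold change 0.54, adjusted p = 0.0358, edgeR). SOX1, SOX14 and SOX17 had 0 counts in all 6 dishes, which allows levels of up to 0.135 to 0.191 CPM per dish.

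Relatives of POU3F2, SALL2 and OLIG2 had 1 of 6 tested genes lower and 0 higher, beside 7.2% lower over all tested genes. DESeq2 and an unadjusted p under 0.05 also gave 1 and 0 for these relatives. The lower gene was POU3F4, a POU factor of the same class as POU3F2, at 1.70 ± 0.22 CPM in PD-L1 dishes and 3.46 ± 0.69 CPM in Vector dishes. Its log2 fold change was -1.02 ± 0.22 (adjusted p = 0.0103, edgeR), and it did not pass without Vector dish 1 (0.0655). POU3F3, another relative, was at 19.9 ± 2.05 CPM in PD-L1 dishes, against 17.0 ± 1.58 CPM with Vector (adjusted p = 0.234, edgeR), and SALL1 at 31.4 ± 1.63 CPM in PD-L1 dishes and 30.5 ± 1.13 CPM in Vector dishes (0.800).

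In a list of 29 other neural stem and progenitor transcription factors, 26 were tested. Of these, 5 were lower and 1 was higher, with a median log2 fold change of -0.08. Over all tested genes 7.2% were lower and 1.55% higher. NFIX, a nuclear factor I gene of radial glia and astrocytes, was at 59.0 ± 5.81 CPM in PD-L1 dishes and 103.5 ± 18.3 CPM in Vector dishes (log2 fold change -0.81 ± 0.12, adjusted p = 0.00104, edgeR). ZIC1, a zinc-finger factor of the dorsal neural tube, had a log2 fold change of -0.88 ± 0.14 (adjusted p = 0.00147, edgeR). These 2 genes passed in all 6 fits that left out 1 dish. TCF12 and TCF3, the partners with which basic helix-loop-helix factors such as OLIG2 pair, fell by 0.39 and 0.30 on the log2 scale, and the hedgehog effector GLI3 fell by 0.40. TCF12 was not called without Vector dish 1 (adjusted p = 0.0574), and TCF3 kept its call on leaving out PD-L1 dish 3 or Vector dish 2 but on leaving out no other dish (highest adjusted p = 0.204). TCF3 also lost its call after the GC and length offset (log2 fold change -0.15, adjusted p = 0.088) and with upper-quartile scaling (0.0569). The PD-L1 and Vector dishes of GLI3 overlapped, and it was called in 1 of the 6 fits, that without Vector dish 2 (highest adjusted p = 0.24). With upper-quartile scaling its adjusted p was 0.0535. CITED1, a transcriptional co-regulator, rose to 67.0 ± 5.53 CPM in PD-L1 dishes, against 54.3 ± 1.78 CPM in Vector dishes (adjusted p = 0.0355, edgeR), and was called in 1 of the 6 fits, that without PD-L1 dish 3 (highest adjusted p = 0.198). PAX6, a regulator of eye and forebrain development, did not pass and had a log2 fold change of 0.09.

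Neural stem cell markers had 5 of 13 tested genes lower and 0 higher (DESeq2 gave 5 and 0), with a median of -0.04. Over all tested genes 7.2% were lower and 1.55% higher. At an unadjusted p under 0.05 edgeR put 1, LIN28B, higher. ITGA6, the laminin receptor chain integrin alpha-6, was at 57.5 ± 4.95 CPM in PD-L1 dishes and 102 ± 1.07 CPM in Vector dishes (adjusted p = 5.23e-05, edgeR). NES, the intermediate filament nestin, was at 47.9 ± 9.93 CPM in PD-L1 dishes, against 74.8 ± 7.02 CPM with Vector (adjusted p = 0.00647, edgeR). ITGA6 and NES passed in all 6 fits that left out 1 dish. The adhesion molecules L1CAM and NCAM1 fell by 1.04 and 0.48 and the radial glia lipid carrier FABP7 by 1.00 on the log2 scale. The highest adjusted p with 1 dish left out was 0.128 for L1CAM (call ended without PD-L1 dish 2 or Vector dish 3), 0.102 for NCAM1 (Vector dish 1 or 3 or PD-L1 dish 1) and 0.25 for FABP7 (any PD-L1 dish). FABP7 also lost its call with the GC and length offset (adjusted p = 0.124) and with upper-quartile scaling (0.0569). LIN28B, a regulator of let-7 microRNAs, and EZH2, the Polycomb methyltransferase, were the most abundant uncalled markers, with log2 fold changes of 0.22 and -0.04. Without PD-L1 dish 3, LIN28B was called higher (0.31, adjusted p = 0.00326, edgeR). PROM1 (CD133) had a mean of 0.04 CPM in PD-L1 dishes, against 0.03 CPM with Vector, and LIN28A had 0 counts.

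Candidate targets of the factors were counted in the same way, beside the same 7.2% lower of all tested genes. The SOX4 and SOX11 list was drawn from general knowledge, and its members other than TUBB3, TEAD2 and DCX, among them both called genes, are the less certain targets. Of 7 tested genes listed as candidate targets of SOX4 and SOX11, 2 were lower and 0 higher (2 and 0 with DESeq2, 4 and 0 at an unadjusted p under 0.05), with a median of -0.28. SEMA3A, a secreted axon guidance cue, was at 21.6 ± 1.40 CPM in PD-L1 dishes and 31.8 ± 1.02 CPM in Vector dishes (adjusted p = 0.00162, edgeR) and passed in all 6 fits with 1 dish left out. The ephrin receptor EPHB3 fell by 0.51 on the log2 scale, and its call ended on leaving out any dish but PD-L1 dish 3 or Vector dish 2 (highest adjusted p = 0.151). TUBB3 and TEAD2, best known as targets from work in mouse, had log2 fold changes of -0.33 and -0.28 without passing, and DCX was below the low-count filter. TEAD2 was called lower without PD-L1 dish 3 (-0.36, adjusted p = 0.00578, edgeR). The abundant STMN1, a tubulin-binding protein, and MEX3A, an RNA-binding protein, were at -0.17 and -0.10, and STMN1 was called lower with the GC and length offset (-0.23, edgeR adjusted p = 0.0227). In the list of cartilage genes under SOX9 and SOX5, 1 of 8 tested genes was lower and 0 higher (1 and 0 with DESeq2 and at an unadjusted p under 0.05), with a median of 0.13. COL11A1, a fibrillar collagen chain, was at 29.3 ± 1.55 CPM in PD-L1 dishes, against 51.5 ± 15.9 CPM with Vector (adjusted p = 0.0295, edgeR), and its call ended on leaving out any PD-L1 dish or Vector dish 3 (highest adjusted p = 0.203). With the GC and length offset it did not pass, and 0 of the 8 genes were lower. The collagen chain COL9A3 and SOX6 were the most abundant uncalled genes of that list, each with a log2 fold change of 0.23. COL2A1 and ACAN, the hallmark cartilage targets, were below the low-count filter, at means of 0.23 and 0.43 CPM in PD-L1 and 0.15 and 0.54 CPM in Vector dishes.

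**Figure D5:**
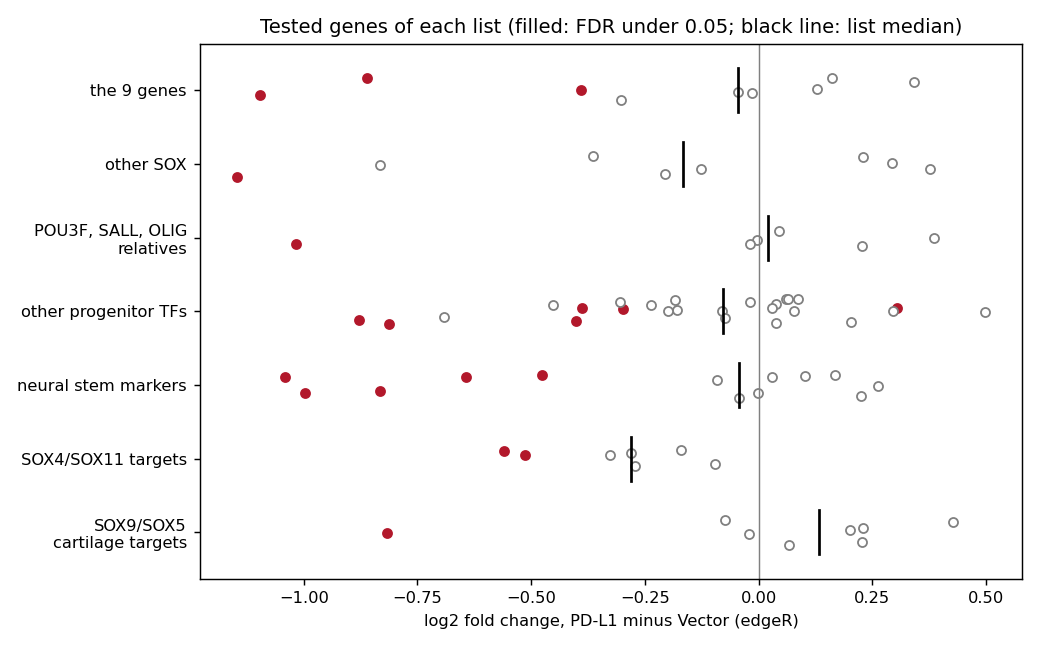
Log2 fold change, PD-L1 minus Vector, of every tested gene of each list, 1 point per gene (filled where the FDR was under 0.05), with a black line for the list median. All lists hold genes to the left of 0 that passed, and CITED1 alone passed to the right.

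Markers of the lineages these factors specify were counted as well, beside the same 7.2% lower of all tested genes. Of 12 oligodendrocyte lineage genes 7 were tested and 2 were lower. They were MBP, at 5.29 ± 0.40 CPM in PD-L1 dishes, against 7.97 ± 0.92 CPM with Vector, and the progenitor receptor PDGFRA, at 5.82 ± 1.15 CPM in PD-L1 dishes and 10.1 ± 3.12 CPM in Vector dishes. The call of MBP ended on leaving out PD-L1 or Vector dish 2 (highest adjusted p = 0.078), and that of PDGFRA on leaving out any dish but PD-L1 dish 3 or Vector dish 2 (0.188). PDGFRA also lost its call after the GC and length offset (0.0792). The abundant CNP and UGT8 did not pass, and MOG, MAG, GPR17 and CLDN11 were below the low-count filter. Of 8 astrocyte genes 5 were tested and 2, GFAP and GJA1, were lower, and the abundant GLUL and SLC1A3 did not pass. GFAP, a defining astrocyte filament, was at 1.70 ± 0.22 CPM in PD-L1 dishes, against 3.18 ± 0.56 CPM with Vector, and AQP4 and ALDH1L1 were below the filter. GFAP was not called without Vector dish 1 (adjusted p = 0.101), and GJA1 was called in the same 2 fits as PDGFRA (highest adjusted p = 0.184) and not with upper-quartile scaling (0.0564). Of 9 neuron genes 6 were tested and MAP2 was lower (log2 fold change -0.53 ± 0.15; called in the fits without PD-L1 dish 2 or 3 and otherwise lost, with a highest adjusted p of 0.135), while SYT1 and GAD1 did not pass. No gene of these 3 lists was higher with edgeR, also at an unadjusted p under 0.05, or with DESeq2. Markers of cells foreign to a glioma line were low. The 8 microglia and leukocyte genes summed to 1.29 to 1.95 CPM in PD-L1 dishes and 2.90 to 3.31 CPM in Vector dishes, with AIF1 called lower, CSF1R not called and 6 below the filter. The 6 endothelial genes summed to 3.51 to 4.49 CPM in PD-L1 and 5.27 to 6.34 CPM in Vector dishes, with TEK and KDR called lower and CDH5 not called (higher at an unadjusted p under 0.05). KDR was called without PD-L1 dish 3 or Vector dish 2 but on leaving out no other dish (highest adjusted p = 0.121), and CSF1R was called lower without PD-L1 dish 3 (0.0221). DESeq2 gave no adjusted p for AIF1, CSF1R, TEK or KDR. Their part in the results above was not tested.

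The genes most alike to each changed factor were taken as those with the smallest root mean square difference of centred log2 CPM over the 6 dishes, among 10840 protein-coding genes of at least 5 CPM. For SOX11 these were CD44, the hyaluronan receptor, with a difference of 0.06 log2 units, and CDH4, the retinal cadherin, with 0.07, against a median of 0.56 over all candidates. CD44 was at 207.8 CPM in PD-L1 dishes, against 416.2 CPM with Vector, and CDH4 was at 43.2 CPM in PD-L1 dishes and 88.0 CPM in Vector dishes. For SOX9 they were BEND5 and DTX3L, at 0.05 and 0.07 against a median of 0.47, with log2 fold changes of -0.86 and -0.83. For SOX2 they were TNKS1BP1 and KIAA2013, each at 0.02 against a median of 0.25, with log2 fold changes of -0.38 and -0.42. This measure does not separate likeness within a group from a similar fold change.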

How the data were processed

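Poly-A RNA of 6 dishes (3 µg of total RNA each) was made into NEBNext Ultra libraries, which carry no strand information, per the labels' protocols. CASAVA 1.8, STAR 2.5.1b, HTSeq 0.6.0 and build hg19 are named in the submitters' processing notes. Annotation and strand setting: not given in the sources used here. Raw whole-number counts per Ensembl ID were deposited by the authors, with 1 column per dish. The deposited normalized counts, a signal scale, equal these counts over a single factor for each dish.

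A table of gene names gave symbols for 51996 IDs and GENCODE 29 for 342 more; 5435 IDs have none. GENCODE 29 is built on another genome build and gave only names, chromosomes, lengths, GC content and overlaps. Raw counts were tested in R 4.3.3 with edgeR 4.0.16 (filterByExpr, TMM, robust quasi-likelihood F test, no covariates, Benjamini-Hochberg FDR under 0.05 over all 15818 genes). Standard errors and 95% intervals were derived from fold change and F value. The common biological coefficient of variation was 8.60%. Ratios within a dish used counts + 0.5. Exact permutation tests were two-sided. CPM used TMM factors, and a count of 3 is 0.135 to 0.191 CPM. Limits from 3 counts cover counting error only.

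The 9 genes and all lists were chosen with earlier results of these data known. The text names the 9 genes, CD274, every other tested SOX gene, of each further list the called genes and the 2 most abundant uncalled ones, and the 2 genes most alike to each changed factor. Genes named beside these (the tested or untested genes TUBB3, TEAD2, DCX, PROM1, COL2A1, ACAN, overlapping genes and markers below the filter) were picked after their values were seen. Some genes that this rule names are not reported here. NEFL, a listed neuron gene, was not analysed here. Alternatives were other scalings, DESeq2 1.42.0, limma 3.58.1 (voom, and trend on log2 of the deposited normalized count + 1), other filters, a replicate block, a GC and length offset (natural splines of 5 degrees of freedom, fitted by dish; values known for 97.6% of tested genes), each dish left out, FDR 0.01 and glmTreat beyond 1.2-fold. The fits over all dishes were tested on simulated counts, which held no outlying dish and no dependence on GC content. Fits that left a dish out were not tested in this way.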

Additional observations from a re-analysis of the deposited data

How the results depend on the processing

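Among the 9 genes, 3 were lower in every fit over 6 dishes except with glmTreat beyond 1.2-fold and at FDR 0.01, where 2 were, and 2 to 3 were lower when 1 dish was left out. POU3F2 was the 1 gene called higher with upper-quartile scaling, without a low-count filter, after the GC and length offset, without PD-L1 dish 3, and without that dish after the offset, an alternative added after seeing the data; otherwise 0 were higher (0 to 1 with 1 dish left out). SOX2 was not called beyond 1.2-fold (adjusted p = 0.406), and SOX9 not after the offset without PD-L1 dish 3 (adjusted p = 0.0941). Signs turned for 2 uncalled genes. SOX12 was at 0.10 after the offset and 0.10 with the block added, at 0.11 with the offset without PD-L1 dish 3, and ran from -0.11 to 0.013 with 1 dish left out (above 0 without PD-L1 or Vector dish 1). SALL2 was at 0.018 with upper-quartile scaling, at 0.056 after the offset and 0.057 with the block added, at 0.067 with the offset without PD-L1 dish 3, and ran from -0.092 to 0.057 with 1 dish left out (above 0 in the same 2 fits). The cause was not tested.

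Over all genes, the higher ones numbered 379 with upper-quartile scaling, 788 after the offset, 19 beyond 1.2-fold, 22 at FDR 0.01, 35 to 1271 with 1 dish left out, and 1588 with the offset without PD-L1 dish 3. The lower ones numbered 424 beyond 1.2-fold, 508 at FDR 0.01, 510 to 2241 with 1 dish left out, and 1853 with the offset without PD-L1 dish 3. Same-numbered dishes did not deviate together (r of -0.21, -0.05 and -0.19 over 15818 genes, each group centred on its mean). With 3 dishes a group, such values cannot settle whether the numbers pair the dishes. With the replicate block 238 genes were higher and 1209 lower, and of the 9 genes 0 and 3, while of the other SOX genes 3 were lower. Of 198 list counts under the alternatives, 149 stayed within 1.5 times, where a count of 0 that stayed 0 is included. Most counts of higher genes were 0 throughout, so this share says little about how steady the counts of lower genes were. SOX5 per length was 0.66 in PD-L1 and 0.81 in Vector dishes with its longest transcript. In PD-L1 dishes the order of SOX9 and SALL2 turned with that length. SALL2 was then at 8.13 CPM per kilobase (rank 4) and SOX9 at 7.85 (rank 5), against 7.47 and 7.85 by the union of exons.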
